A study of Mus musculus with 24 samples.

Results

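The miR-30 family was followed through mouse subcutaneous white adipose tissue during the first weeks of high-fat feeding. Its members were the 5p and 3p arms of miR-30a, miR-30b, miR-30c, miR-30d and miR-30e, 10 arms of the 1907 mature miRNA names in the count table (mmu-miR-30a-5p and so on; the prefix for mouse is left out below), with mmu-miR-30c-2-3p standing for the 3p side of miR-30c. The rule picks arms by name and uses no measured value, although the family was chosen with earlier results of these data known. Small RNA libraries came from mice that had received control or high-fat feed for a day (day 1), a week (week 1) or 3 weeks (week 3), in 6 groups of 4 libraries, 24 in all. The labels give diet, time and tissue for each library, and they name no strain, sex, age or fat content of the diet. They do not state whether libraries of 1 group are separate animals, so each p-value measures the spread between these libraries, which may be technical.

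A miRNA hairpin is cut by DICER into a 5p and a 3p arm, and the arm that is kept in the Argonaute protein, the guide, pairs with messenger RNAs mainly through its seed near the 5′ end. The series title reports lower DICER in adipose tissue on the high-fat diet, which sets the question of whether mature arms differ between the diets. The miR-30 guides, the 5p arms, are known to increase as fat cell precursors differentiate: miR-30a and miR-30d favour adipogenesis by repressing the osteogenic factor Runx2, and miR-30b and miR-30c favour the thermogenic, beige programme by repressing the corepressor RIP140.

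Sequences were matched by name in RefSeq (mouse build GRCm38.p6) for 6 of the 10 arms, and the mature 5p arms are shown because one seed unites them. Capitals mark the seed, bases 2 to 8 from the 5′ end.
mmu-miR-30a-5p: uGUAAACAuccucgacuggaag
mmu-miR-30c-5p: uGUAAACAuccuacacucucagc
mmu-miR-30e-5p: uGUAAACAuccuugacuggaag
All 3 share the leading 12 bases. Counted from the 5′ end, miR-30a-5p and miR-30e-5p differ by C13U alone, and miR-30a-5p and miR-30c-5p differ by C13A, G14C, G18C, G19U and A20C. Outside the family, miR-384-5p was the single other name with this seed among the 1679 mature mouse sequences of the table, and it had 0 to 23 counts per library. The name miR-30f, annotated opposite to Mir30e, had 0 to 2 counts.

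The 3p arms are shown because they carry other seeds and so form 2 groups.
mmu-miR-30a-3p: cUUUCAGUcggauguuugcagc
mmu-miR-30e-3p: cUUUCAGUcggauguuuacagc
mmu-miR-30c-2-3p: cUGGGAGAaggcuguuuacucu
mmu-miR-30c-1-3p: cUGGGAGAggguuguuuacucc
miR-30a-3p and miR-30e-3p differ by G18A alone, so a read with 1 error could pass from one to the other. The same holds for the guides miR-30a-5p and miR-30e-5p, which also differ at a single base. The last line is the 3p arm of the other miR-30c gene, which differs from miR-30c-2-3p by A9G, C12U and U22C. Both miR-30c genes make the same miR-30c-5p, as their hairpins show with the 2 arms in capitals.
Mir30c-2: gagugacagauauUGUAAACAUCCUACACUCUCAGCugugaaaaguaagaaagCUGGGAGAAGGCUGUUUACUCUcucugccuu
Mir30c-1: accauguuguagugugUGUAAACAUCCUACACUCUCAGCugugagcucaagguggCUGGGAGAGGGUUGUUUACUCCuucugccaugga
The 5p counts of miR-30c therefore sum over 2 genes, or depend on how reads with 2 genomic matches were handled, which is not given in the sources used here. The 3p counts keep the 2 genes apart.

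The 6 genes lie as pairs on 3 chromosomes (GRCm38, the assembly also called mm10; GENCODE M21). Mir30a (chr1:23272269-23272339, plus strand) is intergenic, and 19361 bases on lies Mir30c-2 (chr1:23291701-23291784, plus strand), in an exon of the long non-coding RNA Gm27028. Mir30e (chr4:120772606-120772697, minus strand) and Mir30c-1 (chr4:120769534-120769622, minus strand) lie 2983 bases apart in introns of Nfyc, the gene of a subunit of the transcription factor NF-Y. Mir30b (chr15:68337415-68337510, minus strand) and Mir30d (chr15:68341208-68341289, minus strand) are 3697 bases apart, in exons of the non-coding genes Gm26621 and of Gm37296 and Gm20732.

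Libraries held 1.99 to 16.3 M counts (M, mega), with a median of 5.30 M, and all 10 arms were among the 558 miRNAs that passed the filter on low counts. The 4 listed adipocyte-enriched miRNAs, of which miR-365-3p was too low to be tested, summed to between 137359 and 266356 counts scaled to a library of 1 M (CPM) in each library. Markers of other cells were present too: over the 24 libraries the summed CPM was 3394 to 46163 for 6 leukocyte markers, 1353 to 4444 for 4 erythrocyte markers, 52866 to 110976 for 2 endothelial markers (all of it miR-126a-3p, with miR-126a-5p at 0 in all 24), 7398 to 40043 for 7 epithelial markers and 117 to 847 for the liver marker miR-122-5p. Skeletal muscle markers varied the most, from 22.3 to 90964 CPM. The last was in replicate 2 of the high-fat diet at week 1. Fewer cells of a type and less miRNA per cell cannot be told apart in such bulk samples.

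Together the 10 arms took 3.94% to 5.99% of the counts of a library, with a median of 5.11%. The 5 guide arms held 94.4% to 97.2% of the family's counts. Levels below are CPM scaled by the trimmed mean of M-values (TMM). The 6 arms with a matched sequence are 22 or 23 bases long. Whether arms of different sequence were captured alike was not tested, so orders and ratios between arms are those of counts. miR-30a-5p was the most abundant arm, with a mean of 25174 ± 4008 CPM (SD, n = 24), rank 8 of the 558 tested miRNAs, and in all 24 libraries it stood above miR-30d-5p with 16663 ± 2165. A step of 4.16-fold (median over libraries) led down to miR-30e-5p with 4022 ± 524, and miR-30b-5p followed with 2653 ± 236.

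The 3p arms of miR-30a and miR-30e came next, with 1080.0 ± 263 and 595 ± 105 CPM, and both exceeded the guide of miR-30c. miR-30c-5p had 253 ± 45.5 CPM and miR-30c-2-3p 206 ± 50.7, and this order held in 18 of 24 libraries. miR-30d-3p and miR-30b-3p had 50.5 ± 6.43 and 50.2 ± 5.54 CPM, with miR-30d-3p higher in 15 of 24 libraries, so neither of these pairs was separated beyond the spread between libraries. Every other neighbour in the order was separated in all 24 libraries. miR-30c-1-3p had 11.6 ± 3.12 CPM, so of the 2 genes' 3p arms that of Mir30c-2 was the more abundant one throughout. Between its lowest and highest library a member moved from 1.45-fold (miR-30b-5p) to 2.46-fold (miR-30c-2-3p).

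**Figure D1:**
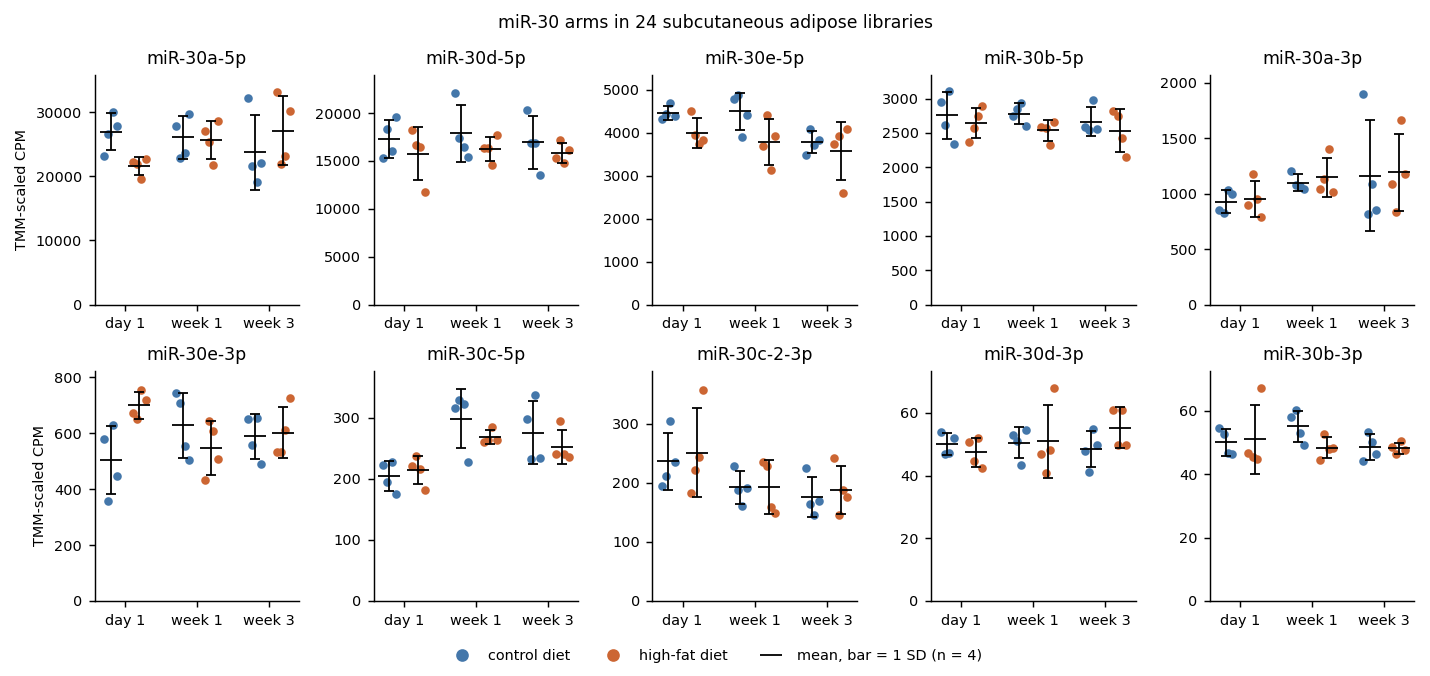
TMM-scaled CPM (vertical axes, each starting at 0) of the 10 arms in 24 libraries by time and diet; points are libraries, horizontal marks the means and bars 1 SD of 4 libraries. Control and high-fat points overlap in most panels, and the day 1 groups stand apart for miR-30a-5p and miR-30e-3p.

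Diet came first among the comparisons. No member passed the test for high-fat against control at day 1, week 1 or week 3, in the mean of the 3 times, or in the joint test for a change of the diet effect with time (edgeR's quasi-likelihood test, Benjamini-Hochberg adjusted p under 0.05 over 558 miRNAs). The background was the same: 0% of the 558 passed in each of these 5 tests. At an unadjusted p under 0.05, 1 of the 10 arms passed at day 1, beside 3.05% of all tested miRNAs, and 0 passed at week 1, week 3 or in the mean, beside 14.2%, 1.79% and 3.23%.

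The precision of this result can be read from the intervals. In the mean of the 3 times, 6 arms had log2 fold changes below 0 and 4 above, from -0.16 to 0.10, with SEs of 0.073 to 0.13. The 95% intervals of all 10 stayed between -0.33 and 0.33, so any larger difference on the log2 scale lies outside the interval of every member. All 5 guide arms had negative estimates, with a median of -0.09, beside a median of -0.04 over the 558 miRNAs, of which 40.3% were above 0. The most negative was miR-30e-5p at -0.16 ± 0.081 (SE), with an adjusted p of 0.993 (edgeR). At a single time, with 4 libraries against 4, the widest interval was -0.43 to 0.51 (miR-30a-3p at day 1).

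**Figure D2:**
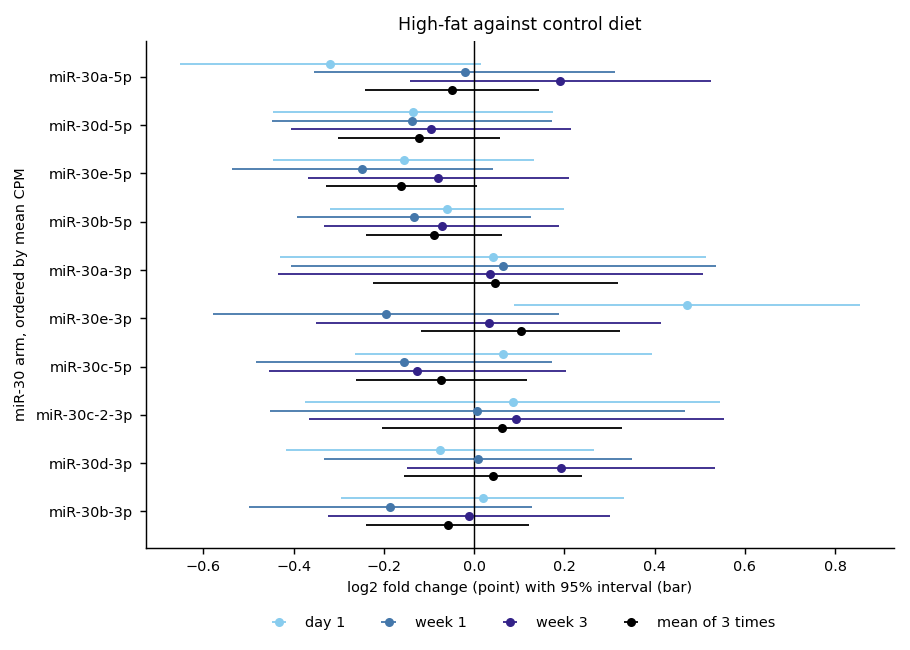
Log2 fold change of high-fat against control diet (points) with 95% intervals (bars) for the 10 arms, ordered by mean CPM, at each time and in the mean of 3 times. The day 1 interval of miR-30e-3p is the one that lies off 0, and its adjusted p was 0.982.

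Day 1 held the largest single differences, in 2 of the hairpins. The guide miR-30a-5p had 23190, 26605, 30064 and 27821 CPM in the control libraries and 22257, 21849, 19513 and 22710 on the high-fat diet. The groups did not overlap, with every high-fat library below every control. The log2 difference was -0.32 ± 0.16 with an adjusted p of 0.982 (edgeR), and at week 3 the estimate was 0.19 ± 0.16. Groups of tested miRNAs that did not overlap made up 1.79% at day 1.

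The passenger arm miR-30e-3p had 579, 359, 630 and 449 CPM in the control libraries at day 1 and 672, 650, 756 and 720.0 on the high-fat diet. Here every high-fat library was above every control. The log2 difference was 0.47 ± 0.19, with an unadjusted p of 0.0179 and an adjusted p of 0.982 (edgeR). The estimates were -0.20 ± 0.19 a week in and 0.03 ± 0.19 at week 3. The joint test over times gave an adjusted p of 0.567 (edgeR). The other arm of this hairpin, miR-30e-5p, had 4330, 4438, 4707 and 4390 CPM against 4519, 3941, 3747 and 3822 at day 1, with groups that overlapped in 1 high-fat library.

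The ratio of the 2 arms of a hairpin within a library does not depend on how libraries are scaled. For miR-30e, log2 of 5p over 3p counts was 2.90, 3.63, 2.90 and 3.29 in the control libraries at day 1 and 2.75, 2.60, 2.31 and 2.41 in the high-fat libraries. The groups did not overlap, and their means differed by -0.66 (exact two-sided permutation test, p = 0.0286, the smallest that 4 against 4 allows). Of all 168 hairpin names with both arms tested, 2.38% reached an unadjusted p under 0.05 in that comparison, and miR-30e did not pass after adjustment over the 168 (exact permutation test, adjusted p = 0.768). The difference was -0.06 at week 1 and -0.13 at week 3. At day 1, 2 of 4 erythrocyte markers had an unadjusted p under 0.05 between the diets (edgeR), beside 3.05% of all tested miRNAs. The median log2 difference over the 4 was -0.57, and none of the tested markers of the other cell lists had such a p. The part of these markers in the day 1 differences was not tested. Over the 3 times the miR-30e ratio differed by -0.28 (exact stratified permutation test, p = 0.0361), beside 4.76% of the 168 under 0.05 and 0% after adjustment.

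For the other 4 arm pairs, with miR-30c-5p set over miR-30c-2-3p, the ratio differed between the diets by -0.15 to -0.03 over the 3 times. Their exact stratified permutation p ran from 0.131 to 0.675. miR-30d-5p had means of 17314 ± 2002 and 15771 ± 2812 CPM (SD, n = 4) on the control and high-fat diet at day 1, 17869 ± 2961 and 16237 ± 1256 at week 1, and 16935 ± 2783 and 15851 ± 1073 at week 3. miR-30b-5p had 2757 ± 345 and 2644 ± 225, then 2781 ± 149.5 and 2535 ± 149, then 2664 ± 209 and 2534 ± 312. In each of these 6 pairs the high-fat mean was the lower one, and none of the differences passed the test.

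Time on either diet was the second axis. The balance of miR-30c-5p over miR-30c-2-3p passed an exact permutation test at week 1, as did 9.52% of all 168 arm pairs. It missed the threshold at week 3. Adjustment over the 168 pairs was chosen after the data were seen, and the week 1 call was lost in 10 of 16 cases with a library left out. At week 1 against day 1, averaged over both diets, 0 of 10 members passed the test, beside 0.896% of the 558 miRNAs. At week 3 against day 1 it was 0 of 10, beside 7.17%. No miRNA passed for week 3 against week 1 (0%). Unadjusted, 2 of 10 members had p under 0.05 at week 1 and 2 at week 3, both times the 2 arms of miR-30c, beside 21.1% and 28% of all tested miRNAs. Both comparisons share the day 1 libraries. The labels give no age, so time on the feed and age cannot be told apart.

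miR-30c-5p had 223, 194, 228 and 176 CPM in the control libraries at day 1 and 221, 238, 216 and 182 in the high-fat ones. At week 1 it had 317, 329, 324 and 227 on the control diet and 260, 264, 285.5 and 264.5 on the high-fat diet. At week 3 the values were 299, 233, 338 and 234 on the control diet and 241, 294, 241 and 235 on the high-fat diet. The day 1 libraries were thus low on both diets, and of the week 1 libraries only replicate 4 of the control diet fell within their range. The log2 difference was 0.43 ± 0.11 at week 1, a 1.35-fold difference, with an adjusted p of 0.0504 (edgeR), just above the threshold. At week 3 it was 0.33 ± 0.11, with an adjusted p of 0.0669 (edgeR).

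The call on miR-30c-5p depended on the tool and the settings. Over 10 other settings (edgeR, DESeq2 or limma-voom) its adjusted p ran from 0.0109 to 0.302 at week 1. At week 3 it ran from 0.036 to 0.378, so some settings moved it further from the threshold. Most of the 10 settings left it above the threshold at each of these times. With DESeq2 miR-30c-5p passed at week 1 (adjusted p = 0.0122) and at week 3 (adjusted p = 0.036). With limma-voom and quality weights it passed at both (adjusted p = 0.0109 and 0.0453). Split by diet, week 1 against day 1 gave 0.54 ± 0.16 on the control diet, with an adjusted p of 0.148 (edgeR), and 0.32 ± 0.16 on the high-fat diet, with an adjusted p of 0.258 (edgeR).

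The 3p arm of Mir30c-2, 1 of the 2 genes of miR-30c-5p, had values in the other direction. miR-30c-2-3p had 194, 213, 305 and 235 CPM in the control libraries at day 1 and 182, 222, 244 and 357 in the high-fat ones. It had 229, 188, 161 and 191 and then 236, 229, 159 and 148 at week 1. At week 3 it had 225, 164, 146.5 and 170 on the control diet and 243, 145, 188 and 177 on the high-fat diet. The times overlapped, and the 2 highest of the 24 values were both at day 1. The log2 difference was -0.34 ± 0.16 at week 1, with an adjusted p of 0.211, and -0.42 ± 0.16 at week 3, with an adjusted p of 0.0871 (edgeR).

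**Figure D3:**
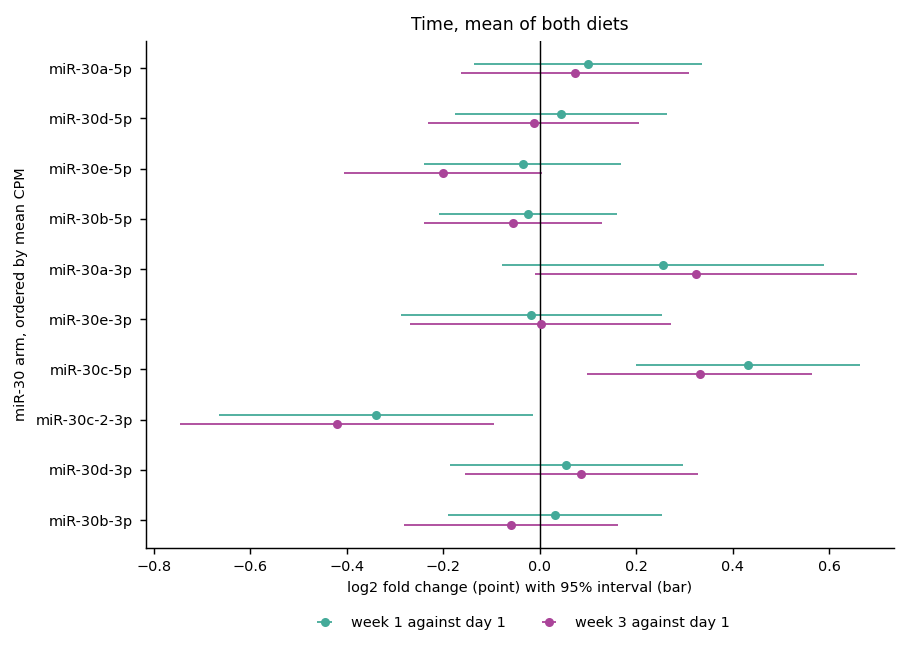
Log2 fold change of week 1 and week 3 against day 1, averaged over both diets (points), with 95% intervals (bars), for the 10 arms ordered by mean CPM. The intervals of miR-30c-5p lie above 0 and those of miR-30c-2-3p below 0 at both times; none of the adjusted p-values was under 0.05.

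Taken within libraries, the balance of miR-30c-5p over miR-30c-2-3p was higher in the week 1 than in the day 1 libraries. Log2 of miR-30c-5p over miR-30c-2-3p was 0.20, -0.13, -0.42 and -0.42 in the control libraries at day 1 and 0.28, 0.10, -0.18 and -0.97 in the high-fat libraries. At week 1 it was 0.47, 0.80, 1.01 and 0.25 on the control diet and 0.14, 0.21, 0.84 and 0.83 on the high-fat diet. So 5 of 8 libraries had more 3p than 5p counts at day 1, and 0 of 8 at week 1. The means were -0.19 ± 0.41 and 0.57 ± 0.34 (SD, n = 8 libraries), a difference of 0.76 (exact stratified permutation test, p = 0.00245). Adjusted over all 168 arm pairs, p was 0.0343, and 9.52% of the 168 pairs passed in that comparison.

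At week 3 the ratio was 0.41, 0.51, 1.21 and 0.46 on the control diet and -0.01, 1.02, 0.36 and 0.41 on the high-fat diet. The mean was 0.55 ± 0.39 (SD, n = 8), so the difference from day 1, 0.74, was close in size to that at week 1 (exact stratified permutation test, p = 0.00245). Adjusted over the 168 pairs p was 0.0514, which missed the threshold, beside 4.17% of pairs that passed. Of the 168 pairs, 7.14% at week 1 and 4.76% at week 3 had a p as small as that of miR-30c. On the control diet alone the week 1 and week 3 libraries were all above those of day 1, by 0.82 and 0.84 (exact permutation test, p = 0.0286 for each, the smallest possible, reached by 11.9% and 8.93% of the 168 pairs). On the high-fat diet the groups overlapped, with differences of 0.69 and 0.64 (exact permutation test, p = 0.114 for each). Whether the diets differ in these differences from day 1 was not tested.

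The week 1 call did not hold under every choice of libraries. Each of the 16 libraries of that comparison was left out in turn: the difference stayed between 0.63 and 0.84 and the unadjusted exact p between 0.000408 and 0.00612, while the p adjusted over all pairs ran from 0.0343 to 0.0857 and missed the threshold in 10 of 16 cases. Those cases were replicates 2, 3 and 4 of the control diet at day 1, replicates 1, 2 and 3 of the control diet at week 1, and replicates 3 and 4 of the high-fat diet at each of day 1 and week 1. The lowest difference came without replicate 4 of the high-fat diet at day 1, the library with the lowest ratio and the lowest total of all 24, 1.99 M. At week 3 the adjusted p ran from 0.0196 to 0.0943 and passed in 3 of 16 cases, without replicate 1 of either diet at day 1 or without replicate 1 of the high-fat diet at week 3.

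The estimates differed with the 3p arm used, but the direct comparison of the 2 3p arms did not pass after adjustment. miR-30c-1-3p had as few as 18 counts in a library. Over miR-30c-1-3p, the 3p arm of the other gene, log2 of miR-30c-5p differed from day 1 by 0.20 at week 1 and by 0.31 at week 3 (exact stratified permutation test, p = 0.218 and 0.130), so neither difference passed. miR-30c-1-3p over miR-30c-2-3p differed by 0.56 and 0.42 (exact stratified permutation test, p = 0.0367 and 0.183). With both 3p arms summed, where miR-30c-2-3p makes up most of the counts, the differences were 0.73 and 0.71 (exact stratified permutation test, p = 0.00204 for each). These are among 12 tests chosen after the data were seen, and adjusted over the 12 the p of the summed ratio was 0.0122 at both times and that of the 2 3p arms at week 1 was 0.147 (exact stratified permutation test). miR-30c-1-3p itself had log2 differences of 0.24 ± 0.20 at week 1 and 0.08 ± 0.20 at week 3, with adjusted p of 0.536 and 0.832 (edgeR).

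Skeletal muscle markers had higher estimates at the later times as well. Of the 6 markers 5 were tested and miR-208b-3p was too low. The 5 had positive log2 differences at week 1, from 2.65 to 3.94, and at week 3, from 2.02 to 3.03, and 0 of 5 passed the test at either time. Unadjusted, 5 of 5 had p under 0.05 at week 1 and 2 of 5 at week 3, beside the 21.1% and 28% of all tested miRNAs. Their summed level in a library was 22.3 to 3075 CPM at day 1, 121 to 90964 at week 1 and 1246 to 16643 at week 3. The 3 libraries highest in these markers included replicate 4 of the control diet and replicate 2 of the high-fat diet at week 1. The other was replicate 4 of the high-fat diet at week 3. Without them the miR-30c ratio differed from day 1 by 0.87 at week 1, with p = 0.0499 adjusted over all pairs (exact stratified permutation test). At week 3 it differed by 0.74, with an adjusted p of 0.0791 (exact stratified permutation test). Only the week 3 library left that second test, so its result is 1 of the 16 single left-out cases above. With all 3 left out, miR-30c-5p passed the edgeR test at week 3, at 0.35 with an adjusted p of 0.0491. With the mean of the muscle markers as a covariate in the fit, miR-30c-5p passed the edgeR test at neither time. The part of the remaining muscle signal in the ratio was not tested.

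Most leukocyte markers had lower estimates at week 1 on the high-fat diet. Their summed level there was 19377 to 40383 CPM at day 1 and 3403 to 19233 at week 1, so the groups did not overlap, against 11424 to 35396 and 8553 to 46163 on the control diet. Of the 6 markers, 5 had an unadjusted p under 0.05 at week 1 against day 1 on the high-fat diet, beside 20.6% of all tested miRNAs, with a median log2 difference of -1.55, and 0 passed after adjustment (edgeR). High-fat against control at week 1 gave 5 of 6, beside 14.2% of all tested miRNAs, and a median of -1.52, again with 0 after adjustment. Averaged over both diets, 1 of 6 had an unadjusted p under 0.05 at week 1 and 0 at week 3, beside 21.1% and 28% of all tested miRNAs. Their part in the miR-30c differences was not tested.

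**Figure D4:**
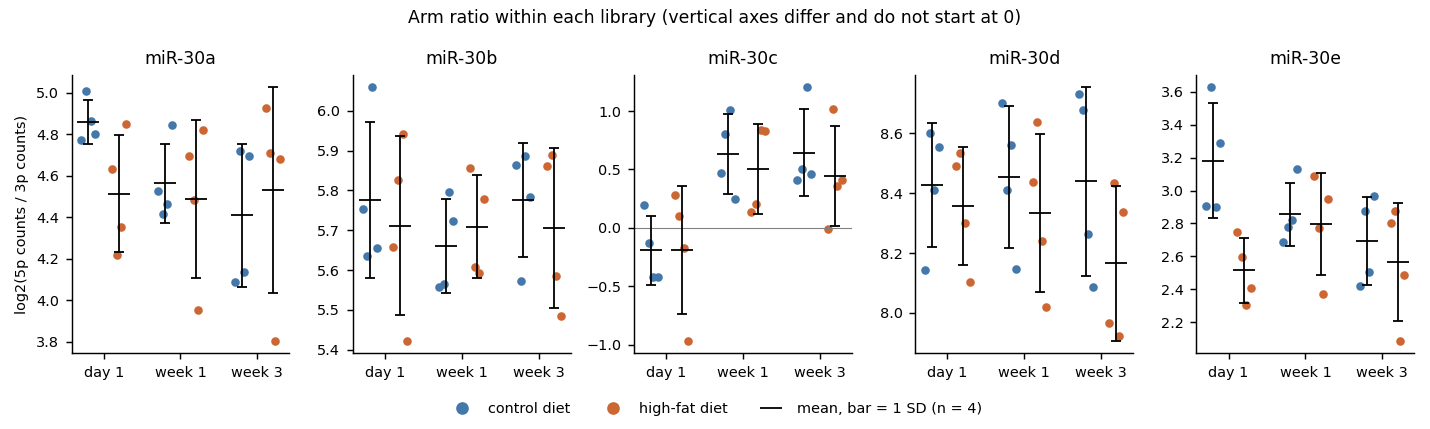
Log2 of 5p over 3p counts (vertical axes, which differ and do not start at 0) in each library for the 5 arm pairs, by time and diet. For miR-30c it is miR-30c-5p, made by 2 genes, over miR-30c-2-3p. Points are libraries, marks the means and bars 1 SD of 4. The miR-30c points lie around -0.19 at day 1 and around 0.57 and 0.55 later, and the miR-30e points of the 2 diets stand apart at day 1.

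For the other hairpins no difference in the ratio over time passed a test over both diets. Mean ratios over the 24 libraries were 4.56 ± 0.32 for miR-30a, 5.72 ± 0.16 for miR-30b, 8.36 ± 0.24 for miR-30d and 2.77 ± 0.34 for miR-30e (SD), against 0.31 ± 0.51 for miR-30c, so the guide outnumbered its partner in every library for these 4 and not for miR-30c. Their differences from day 1 ran from -0.16 to 0.00 at week 1 and from -0.22 to 0.00 at week 3, with exact stratified permutation p from 0.199 to 0.979. On the control diet alone the miR-30a ratio was lower in every week 3 library than in every day 1 library, by 0.45 on average (exact permutation test, p = 0.0286, the smallest possible, reached by 8.93% of the 168 pairs, and 0.32 after adjustment over them). On the high-fat diet the miR-30a difference was 0.02 (exact permutation test, p = 0.971). Whether the diets differ in this was not tested.

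Of the remaining arms, miR-30a-3p had log2 differences from day 1 of 0.26 ± 0.16 at week 1 and 0.32 ± 0.16 at week 3, with adjusted p of 0.381 and 0.19 (edgeR). On the control diet at week 3 it had 1893, 820, 1087 and 849.8 CPM, and the estimate of 0.33 against day 1 there was -0.06 without replicate 1. miR-30e-5p had -0.20 ± 0.099 at week 3, with an adjusted p of 0.187 (edgeR). On the control diet its 3493, 4096, 3718 and 3834 CPM at week 3 lay wholly below day 1, as was so for groups of 7.53% of the tested miRNAs in either direction.

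No shift in the make-up of the guide pool, which the seed of the family acts through, passed a test. Over the 24 libraries miR-30a-5p took from 44.3% to 60.0% of the pool and miR-30d-5p from 27.7% to 39.3%. Of the summed counts of the 5 guide arms, miR-30a-5p took 51.4% ± 4.0 (SD, n = 24), miR-30d-5p 34.2% ± 3.33, miR-30e-5p 8.29% ± 1.04, miR-30b-5p 5.50% ± 0.78 and miR-30c-5p 0.52% ± 0.11. Over the 3 times the diets differed by 1.36 percentage points for miR-30a-5p and by -0.82 for miR-30d-5p (exact stratified permutation test, p = 0.429 and 0.572), and p for the other 3 guides ran from 0.217 to 0.916. The share of miR-30c-5p had means of 0.44% ± 0.069 on day 1, 0.57% ± 0.096 in week 1 and 0.55% ± 0.11 in week 3 (SD, n = 8), with exact stratified permutation p of 0.00898 and 0.0253 against day 1. That of miR-30e-5p was 8.87% ± 0.49 at day 1 and 7.71% ± 1.31 at week 3 (exact stratified permutation test, p = 0.0404). These p-values are 3 of the 20 computed for guide shares and are not adjusted, and none of the 20 passed when all were taken into account.

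**Figure D5:**
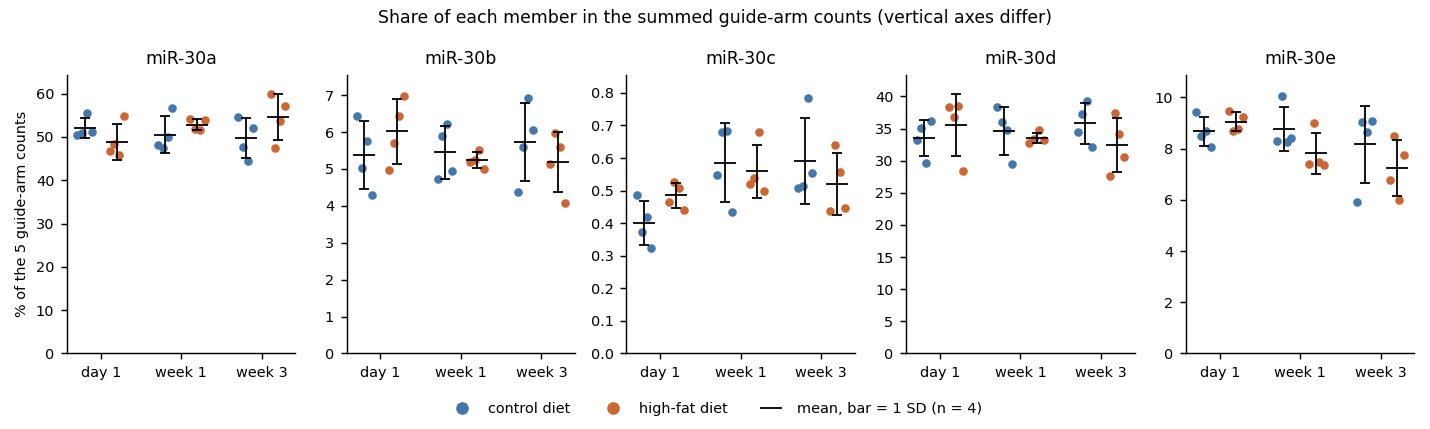
Percent of the summed guide-arm counts (vertical axes, each starting at 0) taken by each guide in each library, by time and diet; points are libraries, marks the means and bars 1 SD of 4. miR-30a holds between 44.3% and 60.0% of the pool, and the miR-30c share is lowest at day 1.

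The summed level of the guides followed the same lines. It was 45956, 52154, 54189 and 54349 CPM in the control libraries at day 1 and 47633, 45264, 42642 and 41339 in the high-fat ones, which overlap by 1 library. By week 3 the groups were interleaved, with 42191 to 58970 CPM on the control diet and 43253 to 55116 on the high-fat diet. As a description over the 24 libraries, the tested miRNAs outside the family whose log2 CPM ran most alike to the log2 guide sum were miR-101a-3p (Pearson r = 0.56), miR-330-3p (0.48), miR-6945-3p (0.45), miR-190a-5p (0.44) and miR-145a-5p (0.42), values that share the libraries, their depth and their scaling. miR-6945-3p had a mean of 1.26 CPM, where 3 counts in the shallowest library are 1.51 CPM. The guide sum itself ran with miR-30a-5p (r = 0.89), miR-30d-5p (0.66) and miR-30e-5p (0.43), and hardly with miR-30b-5p (-0.04) or miR-30c-5p (0.06). The arms ran alike among themselves to differing degrees. Over 24 libraries r was 0.31 between the arms of miR-30a, 0.36 for miR-30b, 0.12 for miR-30d and 0.00 for miR-30e. For miR-30c-5p it was -0.51 with miR-30c-2-3p and 0.50 with miR-30c-1-3p. Between arms of neighbouring genes it was -0.11 for miR-30b-5p and miR-30d-5p, and 0.48 for miR-30e-3p and miR-30c-1-3p.

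Other miRNAs with known roles in fat cells gave the setting. Of 20 listed miRNAs that promote adipogenesis or brown and beige fat, 19 were tested, and of 15 that restrain them, all 15. High-fat against control, 0 of 19 and 0 of 15 passed at each time and in the mean of the 3 times, where the medians of the log2 difference were -0.08 and -0.03. At week 3 against day 1, 3.41% of all tested miRNAs passed as higher and 3.76% as lower. Of the 19 promoting miRNAs, 1 was lower and 0 higher. It was miR-26b-5p, which favours adipocyte differentiation, lower by 0.68 on the log2 scale, with an adjusted p of 0.0209 (edgeR). None of the 15 restraining miRNAs passed there, with a median of 0.25 beside 0.05 over all tested miRNAs. That list holds miR-133a-3p, also a muscle marker. Among the cell markers, miR-144-3p of erythrocytes and miR-126a-3p of endothelium were higher at week 3, by 0.78 and 0.36, with adjusted p of 0.0478 and 0.0473 (edgeR).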

How the data were processed

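The deposited table holds raw counts of reads per mature miRNA, made by the authors with FastQC, Trim Galore, Bowtie2 and featureCounts on mm10, per the submitters' processing notes; for versions, strand setting and multi-mapping reads the sources used here give nothing. Per the labels' protocols, TRIzol RNA went into NEBNext small RNA libraries. Groups and replicate numbers came from the sample titles.

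Counts of the 24 libraries (1.99 to 16.3 M) were filtered with filterByExpr (minimum count 10, minimum total 15), which kept 558 of 1907 names; 440 names were at 0 throughout, and the names left out held 0.0179% of counts. A floor of 3 counts was 0.184 CPM in the deepest and 1.51 CPM in the shallowest library, which covers counting error only, since no molecular identifiers are mentioned. The quasi-likelihood test of edgeR 4.0.16 (R 4.3.3; TMM, robust, 6 group means, 18 residual degrees of freedom) gave log2 fold changes, SEs and 95% intervals that cover the spread between libraries, with Benjamini-Hochberg adjustment over the 558. The biological coefficient of variation was 0.359 over all tested miRNAs and 0.169 to 0.261 for the members. Arm ratios used a pseudocount of 0.5 counts and exact two-sided permutation tests within times or diets (343000 or 4900 regroupings); adjustment over the 168 arm pairs was chosen after the data were seen. Scripts were tested on simulated data, drawn from all 558 tested miRNAs and not from the members alone. There the edgeR test of the diets at day 1 found 11.9% of 1.5-fold and 61.2% of 2-fold changes. In the mean of the 3 times it found 64.2% and 91.0%. A single time thus misses most 1.5-fold changes.

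Same-numbered libraries did not deviate together: 21 of 60 such pairs had a correlation over 0.1, with a mean of -0.035, so replicate numbers were not used as pairs. No 2 libraries of 1 group matched within sampling noise (36 pairs, lowest chi-square per degree of freedom 148). Members and lists were chosen with earlier results of these data known. Named miRNAs were the 10 arms, miR-30c-1-3p, names with the same seed, the 5 most correlated outsiders, and list members with an adjusted p under 0.05. The lists were miRNAs promoting and restraining adipogenesis or beige fat, and markers of adipocytes, skeletal muscle, leukocytes, erythrocytes, endothelium, epithelium and liver. Alternatives were other size factors, filters, DESeq2 1.42.0, limma-voom (limma 3.58.1), a replicate block, a muscle covariate or left-out libraries. Plots used matplotlib 3.10.9 and Python 3.11.15.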

Additional observations from a re-analysis of the deposited data

Results flagged for a closer look

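In 10 of the 120 sets of 4 libraries checked (levels of the 10 arms, arm ratios and guide shares in 6 groups), 1 library lay apart from the other 3, by a gap above Dixon's 95% critical value. Chance flags about 1 set in 20, and these sets share libraries and counts. Levels gave 4 of them: the highest control week 3 library of miR-30b-5p (2976 CPM), the lowest control week 1 library of miR-30c-5p (227 CPM), the highest high-fat week 3 library of miR-30c-5p (294 CPM) and the highest high-fat day 1 library of miR-30b-3p (67.1 CPM). The miR-30c arm ratio gave 1, the highest control week 3 library (1.21). Guide shares gave 5: miR-30a in the highest control day 1 library (55.5%), miR-30d in the lowest high-fat day 1 library (28.4%), and miR-30e in the highest control week 1 library (10.1%), the lowest control week 3 library (5.92%) and the highest high-fat week 1 library (9.02%). The high-fat day 1 libraries named for miR-30b-3p and miR-30d are both replicate 4, which had the lowest total, 1.99 M counts. The cause was not tested.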

How the results depend on the processing

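The count of members passing for high-fat against control was 0 at each time, in the mean and in the joint test under all 34 alternatives tried (10 other settings and 24 left-out libraries). For time, 1 member, miR-30c-5p, passed under some: with DESeq2 and with limma-voom 1 in each of week 1 against day 1 (both diets), week 3 against day 1 (both diets) and week 1 against day 1 on the control diet, and 1 without the 3 libraries highest in muscle markers at week 3 against day 1. Leaving out single libraries gave 0 to 1 for week 1 against day 1 on the control diet, the 1 coming without control week 1 replicate 4 (adjusted p = 0.0472, edgeR). With the replicate number as a block, 1 member passed for week 1 against day 1 over both diets (miR-30c-5p, adjusted p = 0.0474, edgeR) and no other count of passing members changed, but the numbers do not pair the libraries. Counted over the 20 ratio tests of the family, 1 arm ratio passed for week 1 and 1 for week 3 against day 1. Both counts were 0 without the 3 libraries highest in muscle markers and 0 to 1 when single libraries were left out. They were 1 and 0 when adjusted over all arm pairs. The count of guide shares for week 1 against day 1 was 0, and 0 to 1 with libraries left out. The cause was not tested. Of the 110 fold changes of members, none of which passed, 94 of 1100 values under other settings turned sign, all with a size of at most 0.095, and 302 of 2640 with a library left out, up to 0.33. Depth limits the 3p arms of miR-30b and miR-30d most, with as few as 114 and 86 counts in a library.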
